A study of Cephalotaxus fortunei with 9 samples.

Results

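The transcripts described here were abundant in the leaf of Cephalotaxus fortunei and much lower in its stem and root. They were chosen on their level in TPM, an abundance scaled for transcript length and library size: at least 50 TPM in each of the 3 leaf libraries, and a mean leaf TPM at least 5 times both the mean stem TPM and the mean root TPM. The rule found 162 of the 37051 transcripts in the files. The same rule with stem as the high tissue found 275 transcripts, and with root as the high tissue 479.

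C. fortunei is an evergreen conifer with flat needle leaves, known for cephalotaxine-type and homoerythrina-type alkaloids, and the study sequenced its organs to find the enzymes that make them. Poly(A)-selected RNA was sequenced from leaf, stem and root, with 3 libraries per organ, and the labels name no treatment, cultivar or genotype. The labels give neither the age of the plants nor whether the libraries of an organ came from separate plants, so a p-value here reflects how these particular libraries vary, and that variation may be only technical. As background, the leaf is the main site of photosynthesis, and in seed plants its most abundant messages commonly encode chloroplast proteins such as light-harvesting proteins and the small subunit of Rubisco. The files give transcripts by running number and pair none of them with a gene name, sequence or position. The members are therefore described by level, profile and length, and the organ labels could not be checked against marker genes.

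Root replicates 1 and 2 held nearly the same values. Over 107 members with at least 20 reads in that pair, the chi-square statistic per degree of freedom was 0.0587, against 7.42 to 50.3 in the other pairs of libraries within an organ. These 2 libraries differed by less than the sampling noise, so their mean served as 1 sample and root had 2 samples in all. The leaf libraries held 12809484 to 14606814 estimated reads, the stem libraries 18417327 to 19652495 and the root libraries 7117807 to 8093638. In leaf the members rested on many reads: the lowest member had 61.6 to 65.2 estimated reads per library and the median member 1021 to 1159.

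The members made up a sizeable part of the leaf messenger pool. They held 7.12%, 6.81% and 7.21% of TPM in leaf replicates 1, 2 and 3, with a mean of 7.04% ± 0.209 (SD, n = 3). In stem they held 0.447%, 0.464% and 0.434%, with a mean of 0.448% ± 0.0149 (SD, n = 3). In root they held 0.421% in replicate 1, 0.422% in replicate 2 and 0.290% in replicate 3, with a mean of 0.356% ± 0.0930 (SD, n = 2). These levels chose the members, so they are given without a test. In bulk tissue, fewer cells of a type and less RNA per cell cannot be told apart.

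**Figure D1:**
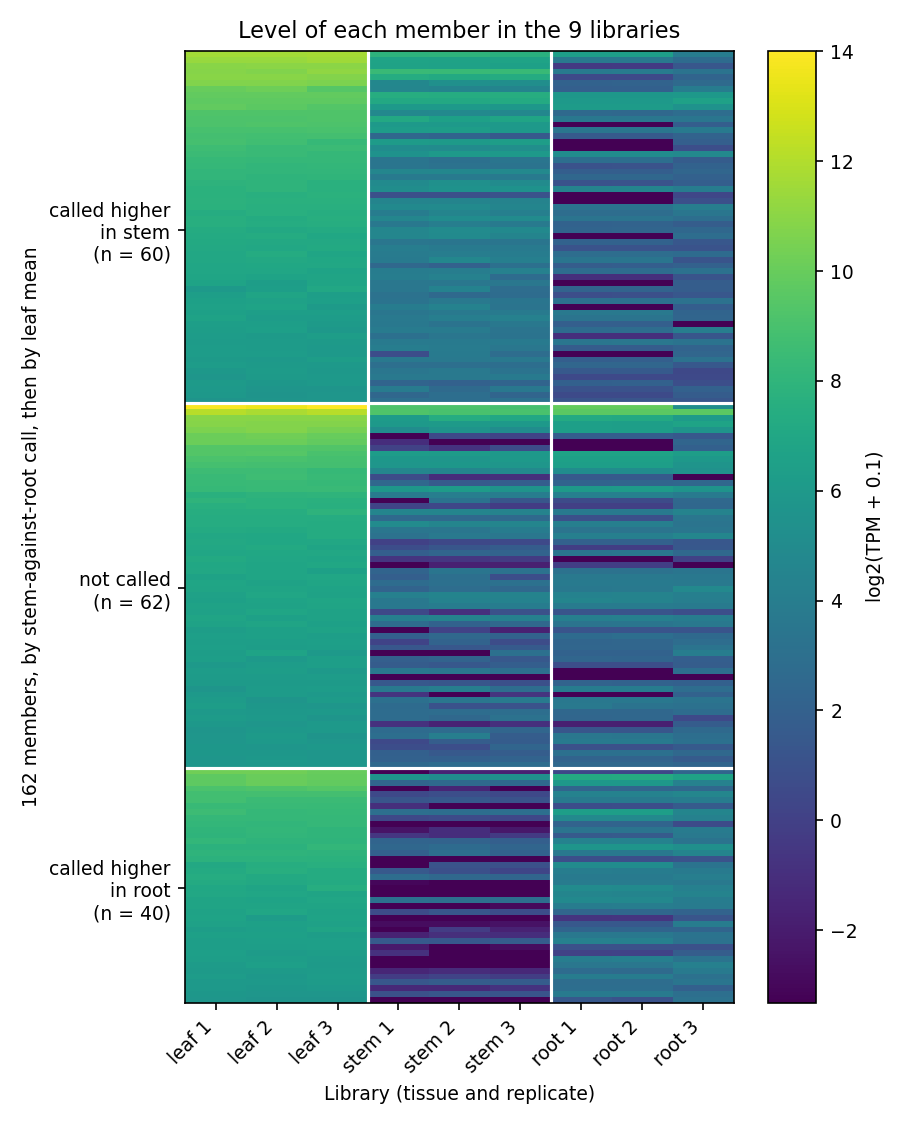
Level of each of the 162 members (rows) in the 9 libraries (columns), as log2(TPM + 0.1), with rows grouped by the stem-against-root call and ordered by mean leaf TPM within each group. The 3 leaf columns are alike, 23 of the 40 members called higher in root are below 1 TPM in stem, and root replicate 3 differs from root replicates 1 and 2 in scattered rows.

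A few very abundant members carried most of the leaf signal. The 10 highest held 50.6% of the members' summed leaf TPM and the 50 highest held 82.4%. The mean leaf level ranged from 51.9 to 14365 TPM with a median of 133 TPM. There were 28 members at 500 TPM or more, 74 from 100 to 500 TPM and 60 below 100 TPM. Among the 100 most abundant transcripts of leaf, 14 were members.

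The most abundant member, 417 bases long and the third most abundant transcript of leaf, stood at 14545, 12029 and 16522 TPM in leaf replicates 1 to 3. In stem it stood at 565, 567 and 481 TPM. Its root values were 961, 967 and 36.6 TPM, the last in replicate 3. It alone held 20.4% of the members' leaf TPM, and its leaf level was far above every stem and root library, while the 2 root samples lay on either side of stem. Without it the members held 5.61% ± 0.0558 of leaf TPM (SD, n = 3), 0.325% of TPM in each of the first 2 root libraries, and 0.286% in the third.

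The second most abundant member, 563 bases long, was at 4472, 3631 and 4575 TPM in leaf. It was at 593, 534 and 525 TPM in stem and at 799, 795 and 804 TPM in root. Its root libraries lay above its stem libraries without overlap, yet the difference between those organs did not pass the test described below (log2 stem over root -0.29 ± 0.15 SE, adjusted p = 0.13, edgeR). The third, 1690 bases long, was at 3157, 3080 and 3205 TPM in leaf, at 231, 250 and 208 TPM in stem, and at 85.1, 85.5 and 15.2 TPM in root. Its order was leaf, then stem, then root in every library, and stem exceeded root by 2.63 ± 0.61 (SE) on the log2 scale (adjusted p = 0.0087, edgeR).

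Members differed widely in how far leaf exceeded the other organs. The ratio of mean leaf to mean stem TPM had a median of 18.8 and quartiles of 7.90 and 99.7, and the ratio to root had a median of 19.5 and quartiles of 9.41 and 52.6. A mean resting on fewer than 3 reads over an organ was replaced by the level that 3 reads over the organ would give, which applied to 16 members in stem and 5 in root. The smaller of the 2 ratios was the one to stem for 80 members and the one to root for 82. Leaf was at least 10 times both organs for 76 members, at least 50 times for 20 and at least 100 times for 13. Among all 162, the lowest leaf library lay above the highest stem or root library, and for 118 it was at least 5 times that library. The rule chose the members on these levels, so nothing is read from these ratios and counts.

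**Figure D2:**
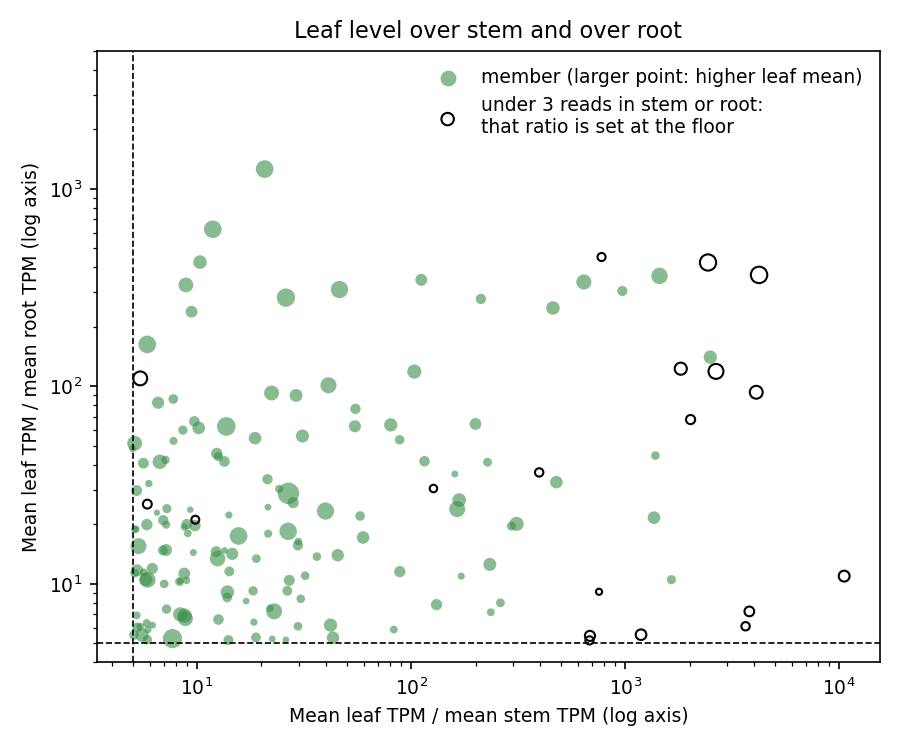
Ratio of mean leaf TPM to mean stem TPM (x, log axis) and to mean root TPM (y, log axis) for the 162 members, with dashed lines at the limit of 5. Larger points have a higher leaf mean, and open points had under 3 reads in stem or root, where the ratio was set at the floor. The 13 members with both ratios of at least 100 lie at the upper right.

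The 2 members that stood highest over both organs were nearly or wholly without reads outside leaf. Transcript transcripts_34791 (914 bases) was at 74.5, 73.5 and 76.7 TPM in leaf and had 0 reads in all 6 stem and root libraries. Its leaf level was at least 776-fold higher than in stem, against a floor of 3 reads over the organ. On the same floor it was 452-fold higher than in root, counting all 3 root libraries. With root replicates 1 and 2 counted as 1 sample, that root bound would be lower. The leaf counts of this transcript (597.1, 555.7 and 530.5) were not whole numbers, so a similar transcript may hold part of its reads. Whether that division bears on its 0 reads in stem and root was not tested. No other member lacked reads in both organs. Transcript transcripts_19697 (295 bases) was at 1117, 1130 and 915 TPM in leaf. It had 1 read over the stem libraries and 4 reads in root, all in root replicate 3. It entered the ratios above at the floor of 3 reads in stem, as 2438. Taken on the 1 stem read, its mean leaf TPM was 8122 times that of stem (95% exact Poisson interval of that read 1458 to 320796), and it was 424 times that of root (165 to 1555). These intervals and floors cover counting error only.

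Complete absence from the other organs was uncommon. The mean stem level was below 1 TPM for 32 members and the mean root level for 6, and 3 members were below 1 TPM in both. There were 9 members with 0 reads in all stem libraries and 1 with 0 reads in all root libraries. Conversely, 71 members reached a stem mean of 10 TPM, 64 reached a root mean of 10 TPM, and 34 reached it in both. Levels near 0 differed between the root libraries: 24 members were below 1 TPM in root replicate 1 and in root replicate 2, but 5 were in root replicate 3.

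The leaf libraries were close to each other. The coefficient of variation over the 3 leaf libraries had a median of 7.57% and a highest value of 35.3%, compared with a median of 6.27% over the 2883 other transcripts with at least 50 TPM in each leaf library. The largest ratio between the highest and lowest leaf library of a member was 1.96. Leaf replicates 1, 2 and 3 held the highest value of 58, 54 and 50 members and the lowest value of 39, 61 and 62. No leaf library was thus consistently the highest or the lowest, though replicate 1 was the lowest least often.

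Members were shorter than other abundant leaf transcripts. Their median length was 746 bases with quartiles of 416 and 1156 bases, against a median of 1252 bases for the other transcripts at 50 TPM or more in each leaf library and 695 bases for all transcripts. Only 9 members (5.56%) exceeded 2000 bases, compared with 24.8% of the other abundant leaf transcripts. The stem and root counterparts chosen by the same rule had median lengths of 853 and 595 bases. These lengths are described without a test.

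The limits of the rule cut through a continuous range. The member nearest the leaf minimum had 50.4 TPM in its lowest leaf library, and the nearest transcript outside had 49.4 TPM. The nearest ratios to stem were 5.003 inside and 4.99 outside, and the nearest ratios to root were 5.17 inside and 4.997 outside. Within 10% of these limits lay 14, 13 and 10 members inside, and 14, 13 and 11 transcripts outside.

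In the model fitted to the counts of all transcripts, 161 of 162 members were called higher in leaf than in stem, and 161 higher in leaf than in root. A call required a Benjamini-Hochberg adjusted p under 0.05 over the 24564 transcripts tested and a difference of 1 or more on the log2 scale, either way, in edgeR's quasi-likelihood test. Over all transcripts tested, 14.5% were called higher in leaf than in stem and 17.7% higher in leaf than in root. Since the rule used these contrasts, nothing is read from the counts. The exception was the same member in both contrasts. It was 525 bases long and stood at 79.0, 109 and 65.4 TPM in leaf, at 0, 0 and 8.30 TPM in stem, and at 4.27, 4.24 and 15.8 TPM in root.

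The contrast of stem with root asked where the members were second highest. The rule did not compare these organs, but it limited the level in both, and that limit was equal in TPM only. The TMM factors (trimmed mean of M values), which scale the library totals in the test, were 0.75 to 0.79 in stem and 1.16 to 1.26 in root. All 162 members were in the test, and they divided between the organs. Of these, 60 (37.0%) were called higher in stem than in root and 40 (24.7%) were called higher in root than in stem, by the same criteria. Over all transcripts tested, 20.3% were called higher in stem and 31.8% higher in root. Since the rule limited the members' stem and root levels and no such limit holds for the whole table, nothing is read from the distance between these shares. In TPM the members were evenly divided: the mean was higher in stem for 80 and higher in root for 81. All stem libraries lay above all root libraries for 58 members (35.8%) and below them for 61 (37.7%), compared with 24.7% and 51.9% of all transcripts tested. The median log2 ratio of stem to root was 0.47 over the members and -0.46 over all transcripts tested.

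The split between stem and root calls depended on the scaling. With library totals alone in place of TMM scaling, 45 members were called higher in stem and 50 higher in root, against 13.0% and 42.1% of all transcripts tested. The medians were then -0.13 over the members and -1.09 over all transcripts. With DESeq2's size factors in edgeR the members' median was 0.36. With limma on log2(TPM + 1), which differs in test, length scaling and pseudocount as well, 46 members were higher in stem and 48 higher in root, against 15.3% and 39.4% of all transcripts, and the medians were -0.0016 and -0.64. The sign of the members' median was thus positive with TMM or DESeq2 scaling and negative with library totals.

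The 2 root samples gave similar counts. Without root replicate 3 there were 64 members higher in stem and 35 higher in root. When root was represented by replicate 3 alone there were 60 and 43. Such fits have 1 root sample, whose variance is taken from leaf and stem. Replicate 3 alone was a setting added after the data were seen. Each root sample alone called 53 of the same members higher in stem and 33 of the same members higher in root, and 1 member was called in opposite directions. Over all transcripts tested, 20.4% were higher in stem and 22.3% higher in root without root replicate 3, and 19.4% and 22.9% with replicate 3 alone.

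**Figure D3:**
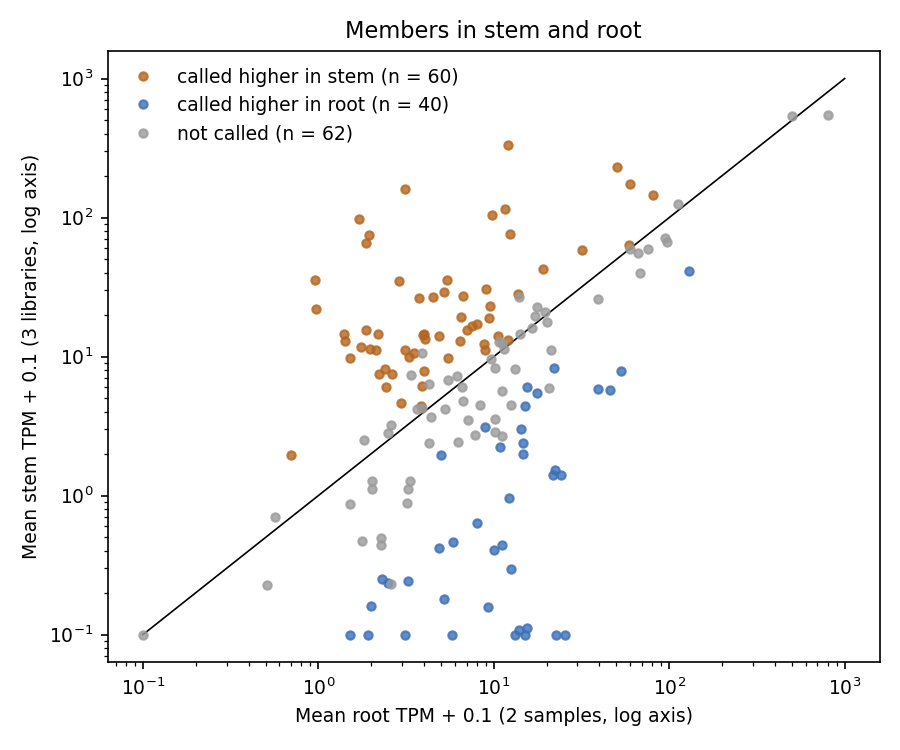
Mean stem TPM + 0.1 (y, log axis, 3 libraries) against mean root TPM + 0.1 (x, log axis, 2 samples) for the 162 members, with a line of equal level. The 60 members called higher in stem lie above the line and the 40 called higher in root lie below it. Several of the latter sit at the bottom because they had 0 reads in stem.

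The 60 members with a leaf, stem, root order had a median of 165 TPM in leaf, 15.4 TPM in stem and 3.95 TPM in root. They included 6 of the 10 most abundant members. In some of them the stem and root libraries overlapped in TPM. With library totals alone, 45 of these 60 kept the stem call, while all 40 members called higher in root kept theirs. Transcript transcripts_18510 (933 bases) was at 1965, 1942 and 1778 TPM in leaf and at 166, 148 and 165 TPM in stem. It was at 1.30, 1.33 and 4.76 TPM in root. Stem exceeded root by 6.30 ± 0.46 (SE) on the log2 scale (adjusted p = 3.95e-05, edgeR), by 7.62 without root replicate 3 and by 5.70 with replicate 3 alone. Every stem library was far above every root library, which held 75 reads in all.

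Transcript transcripts_4254 (228 bases) was at 473, 424 and 316 TPM in leaf and at 72.4, 70.7 and 80.3 TPM in stem. In root it had 0 reads in replicates 1 and 2 and 1 read in replicate 3, where it was listed at 3.67 TPM. The fitted log2 difference between stem and root was 6.85 ± 0.55 (SE, adjusted p = 4.47e-05, edgeR), and 5.70 with effective-length offsets. That SE was derived from the test statistic and is not a counting interval. The fit was repeated with fewer root libraries. The log2 difference was 9.71 without root replicate 3, a fit with 0 root reads whose value is no bound. In TPM the mean of stem was 40.6 times that of root, with a 95% exact Poisson interval of that root read from 7.29 to 1603. The stem and root libraries did not overlap, but the size of the difference rests on that 1 root read.

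The 40 members with a leaf, root, stem order had medians of 146 TPM in leaf, 12.8 TPM in root and 0.351 TPM in stem. Their stem level varied: 23 of them were below 1 TPM in stem, and the others reached a mean of up to 41.2 TPM. Of these 40 members, 8 had 0 reads in all stem libraries. Transcript transcripts_24119 (1509 bases) was at 85.6, 81.04 and 74.1 TPM in leaf and at 15.8, 17.9 and 9.44 TPM in root, with 0 reads in stem. Its root level was at least 599-fold higher than in stem, against a floor of 3 reads over the stem libraries (adjusted p = 2.61e-05, edgeR). Transcript transcripts_25691 (656 bases) was at 131, 114 and 177 TPM in leaf and at 32.1, 31.7 and 18.9 TPM in root, again with 0 reads in stem. Against the same floor its root level was at least 215-fold higher (adjusted p = 5.55e-05, edgeR). The root libraries held 73.8 to 338 reads of these transcripts each, and no stem library held any. Their root counts were not whole numbers, so a similar transcript may hold part of their reads. The floors cover counting error only.

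The remaining 62 members passed in neither direction. Their medians were 111 TPM in leaf, 5.71 TPM in stem and 7.98 TPM in root, and they included the 2 most abundant members. A missed threshold does not show equal levels: the log2 difference between stem and root in this group ranged from -2.84 to 2.37.

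The members' calls varied with transcript length, which was not tested. Up to 300 bases, 13 of 21 members were called higher in stem and 0 higher in root. Above 2000 bases, 2 of 9 were called higher in stem and 5 higher in root. Over all transcripts tested, calls were counted by length only up to 300 bases, so the longer classes have no such comparison. The median length was 607 bases for members higher in stem and 928 bases for members higher in root, whereas over all transcripts called it was 1166 and 969 bases. The main test uses counts that are not scaled for effective length, the adjusted length deposited with each count. It exceeded the transcript length for 27 to 33 members in the leaf libraries, 25 to 27 in stem and 16 to 18 in root. When effective lengths were entered as offsets, a setting added after the data were seen, 8 of the 21 shortest members were called higher in stem and 2 higher in root. Over all 2226 tested transcripts of up to 300 bases, the same change moved calls from 18.8% to 10.3% higher in stem and from 30.7% to 50.04% higher in root. Above 300 bases the members' calls moved by at most 2 in any length class, and the total was 56 higher in stem and 40 higher in root, against 21.0% and 33.1% of all transcripts tested.

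**Figure D4:**
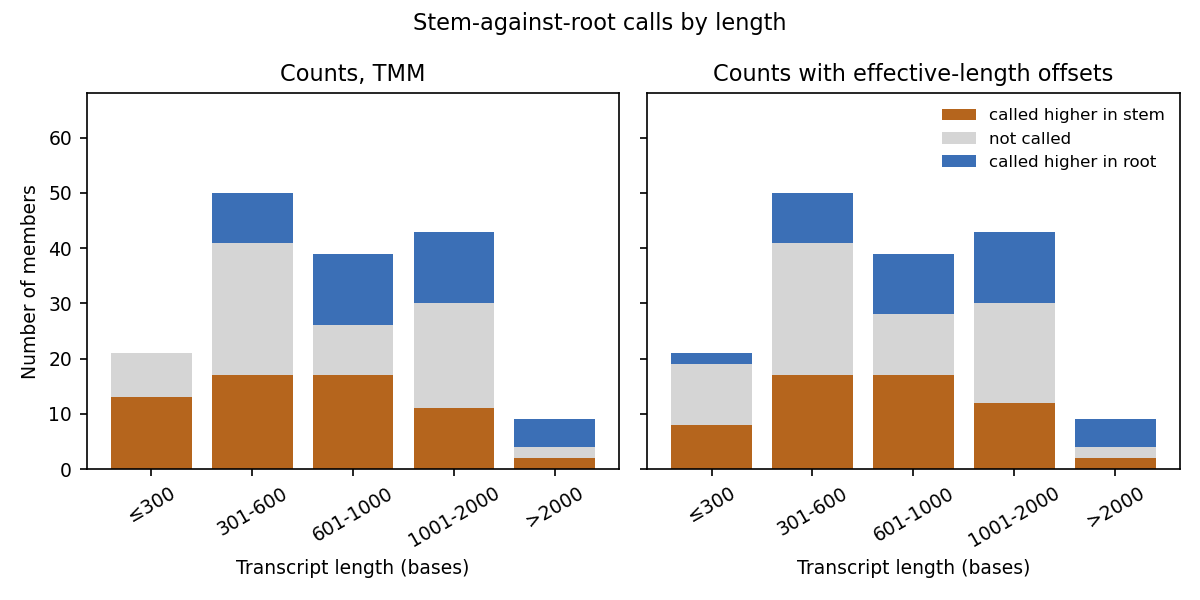
Number of members called higher in stem, higher in root or in neither, by transcript length in bases, from counts with TMM scaling (left) and with effective-length offsets (right). The class of up to 300 bases goes from 13 and 0 to 8 and 2 calls higher in stem and in root, and the longer classes change little.

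The calls were also counted by leaf level, beside all tested transcripts of the same leaf level, members included. At a leaf mean of 500 TPM or more, 14 of 28 members were called higher in stem and 4 higher in root, compared with 64.7% and 6.90% of all 232 transcripts at that level. From 100 to 500 TPM, 25 of 74 members were higher in stem and 21 higher in root, compared with 51.3% and 7.29% of 1399 transcripts. From 50 to 100 TPM, 21 of 60 members were higher in stem and 15 higher in root, compared with 40.7% and 10.9% of 1690 transcripts. Beside transcripts of like leaf level, the share of members called was lower for stem and higher for root, the reverse of the order beside the whole table. Of the transcripts at the leaf minimum, the rule left out 517 on the stem limit only and 125 on the root limit only. The rule thus bears on this order, and nothing is read from it. With library totals alone the members' counts in these classes were 13 and 4, 20 and 26, and 12 and 20. The stem share at 500 TPM or more was then 46.4% of members and 44.4% of all transcripts at that level, and the other shares kept their order. The rule limited the members' stem and root levels here too, and these differences were not tested.

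The 35 members with whole read numbers in all 9 libraries, whose reads were not divided among similar transcripts, gave 17 calls higher in stem and 8 higher in root. With library totals alone they gave 13 and 10. Over all 4467 tested transcripts with whole read numbers, 16.8% were called higher in stem and 40.7% higher in root with TMM scaling. With library totals alone these shares were 10.9% and 50.7%.

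The 2 root samples disagreed most on members with low root levels. The level in root replicate 3 lay over 4-fold from the mean of root replicates 1 and 2 for 27 members (16.7%), on log2 values with 0.1 TPM added, and it was higher for 21 and lower for 6. Among the 2883 other abundant leaf transcripts, 2.46% were this far apart. Of the 21 higher members, 14 had 0 reads in root replicates 1 and 2, with a median of 5.5 reads in root replicate 3. Below a root mean of 10 TPM, 25 of 98 members (25.5%) were this far apart, compared with 48 of 225 (21.3%) of the other abundant leaf transcripts. At 10 TPM or more, 2 of 64 members were, the most abundant member among them, compared with 23 of 2658 others. More of the members than of the others had a root mean below 10 TPM. For comparison, 14 members differed over 4-fold between the highest and lowest stem library on the same scale, and 0 between leaf libraries.

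**Figure D5:**
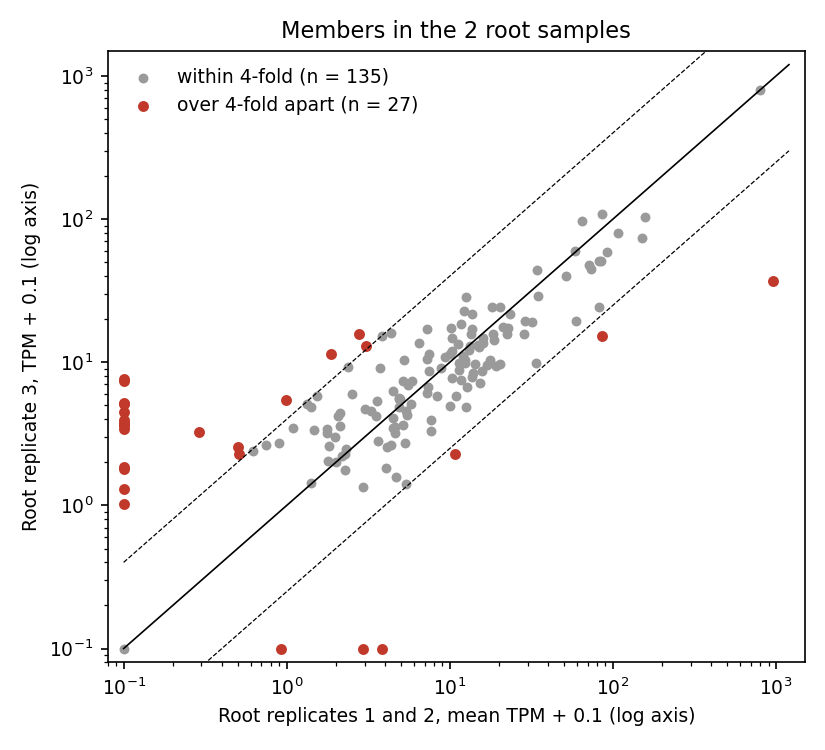
Level of the 162 members in root replicate 3 against the mean of root replicates 1 and 2, both as TPM + 0.1 on log axes, with a line of equal level and dashed lines at 4-fold. The 27 red points lie over 4-fold apart; the most abundant member is the red point at the far right, at 36.6 TPM in root replicate 3.

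Reads of most members were divided among similar transcripts. In leaf, 69.1% to 71.6% of the members had an estimated count more than 0.001 from a whole number, compared with 73.4% to 75.0% of the other abundant leaf transcripts. The values of such members are uncertain, since a near-identical copy may hold part of their reads. Members with whole counts in every leaf library had a median leaf level of 107 TPM and the others 152 TPM.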

How the data were processed

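Poly(A)-selected, strand-specific libraries of leaf, root and stem were processed by the authors with fastp 0.23.2 and Salmon 1.10.0, per the submitters' processing notes; the origin of the reference transcripts is not given in the sources used here. The deposited tables hold an estimated count of reads and a TPM per transcript, plus length and effective length in bases, per the file headers. The rule was applied to the deposited TPM. The members and tests were chosen with earlier results of these data known.

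Root replicates 1 and 2 were averaged. Estimated counts were rounded and fitted in edgeR 4.0.16 (R 4.3.3) for all 8 samples with expression filtering, TMM scaling, 1 mean per organ and robust quasi-likelihood tests, adjusted over 24564 transcripts. The members named were the 2 called higher in stem and the 2 called higher in root with the largest fold among those without overlap of stem and root libraries and with at least 1 TPM in the higher of these organs, and the 2 with the largest smaller ratio of leaf to the other organs. Alternatives used DESeq2 1.42.0, limma 3.58.1, other scalings, filters, limits and libraries. The SE of a log2 difference was the absolute log2 difference divided by the square root of the test's F statistic. Depth limits low levels in root most.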

Additional observations from a re-analysis of the deposited data

How the results depend on the processing

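The counts of members called higher in stem (60) and in root (40) stayed within 1.5 times under each alternative run: 45 to 68 and 37 to 50 over 13 settings, and, omitting each library in turn, 58 to 64 and 35 to 40. Fitting all 9 libraries with the replicate block gave 62 and 38, and the same fit with no block gave 62 and 41. The larger count did not always lie with stem. Library totals alone gave 45 and 50, limma on log2(TPM + 1) 46 and 48, and limma on log2(TPM + 0.1) 47 and 49. Shares over all transcripts are given above for some settings only, so nothing is read from the ranges. Replicate numbers gave no sign of pairing leaf with stem, and root was not examined: between leaf and stem libraries of equal number, deviations from the organ mean correlated at -0.032, 0.0068 and 0.0082. The 4 members named for stem against root passed at an adjusted p under 0.05, in the same direction, in each setting. Membership followed its limits by construction: it was 279 at 20 TPM, 95 at 100 TPM and 76 at a 10-fold limit. The share of leaf TPM was then 7.48%, 6.53% and 4.92%, and 8.51% at a 4-fold limit. It was 6.32% (123 members, 116 of them shared) with TPM divided by TMM factors and 5.86% (122 members, 95 shared) with CPM, which is not scaled for length. Leaving out each library gave 157 to 171 members and 6.97% to 7.46% of leaf TPM, with 150 of the 162 shared without root replicate 3.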
